A study of Saccharomyces cerevisiae with 2 samples.

Results

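The decapping factors and activators of the budding yeast Saccharomyces cerevisiae were described across a run-on transcription experiment on 2 strains. The 10 genes were taken by systematic name: DCP1, DCP2, PAT1, LSM1, DHH1, EDC1, EDC2, EDC3, DCS1 and DCS2. These genes were chosen with earlier results of these data known. They are 10 of 6448 open reading frames in the deposited table, and 10 of the 5309 classed as protein-coding. One library came from a strain with XRN1 deleted, obtained from the Euroscarf collection and labelled as an Xrn1 mutant. The other came from BY4741, labelled wild type, a haploid laboratory strain. Both were grown to an OD600 of 0.55, permeabilised with 0.5% sarkosyl, treated with RNase A, and then supplied with Bio-11-UTP during a run-on of 5 min at 30 °C. Polymerases already engaged on a gene extend their transcripts in this assay (BioGRO-seq), so the counts report ongoing transcription and not the amount of mRNA.

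In 5′ to 3′ mRNA decay the cap is removed first and Xrn1 then digests the body of the transcript. Dcp2 is the catalytic subunit of the decapping enzyme and Dcp1 its partner. Pat1, the Lsm1 to Lsm7 ring and the helicase Dhh1 recruit or stimulate the enzyme on deadenylated mRNAs, and Edc1, Edc2 and Edc3 enhance it further. Dcs1 is a scavenger that hydrolyses the short capped fragments left by decay from the other end. It is also known as an activator of Xrn1 and an inhibitor of the neutral trehalase Nth1. Dcs2 is its stress-induced paralog and inhibits it. The series concerns how the loss of Xrn1 alters transcription, and most of the genes described here encode the step just upstream of Xrn1.

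The libraries held 46396400 counts for the xrn1 deletion strain and 64934493 for the wild type. XRN1 itself had 53 counts in the xrn1 deletion strain and 41954 in the wild type, 555-fold lower. The marker genes LEU2, URA3 and MET17, which BY4741 lacks, had between 1 and 12 counts in each library. HIS3, which is deleted only in part in that background, had 2720 counts in the xrn1 deletion strain and 2839 in the wild type. All ratios are the xrn1 deletion strain over the wild type and were scaled so that the median gene, taken among protein-coding genes of 100 counts or more, has a ratio of 1 (its raw ratio was 0.701). A shift shared by every gene is therefore invisible. Each strain had a single library, so nothing checks the differences against replicates and no p-value is given. The 95% exact intervals of ratios and levels cover counting error only, and variation between cultures was not measured.

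The scavenger genes DCS1 and DCS2 were transcribed at a higher relative level in the xrn1 deletion strain. The catalytic subunit gene DCP2 and the core activator genes PAT1, LSM1 and DHH1 lay between the quartiles of all tested genes. A gene was called when its ratio reached 2, or fell to 0.5 or below, and its counting interval excluded 1. All 10 genes had at least 100 counts, 2 were called higher (DCS1 and DCS2) and 0 lower. Over the 5198 protein-coding genes that passed the same minimum, 4.06% were called higher and 1.52% lower. Neither DCP1, with the lowest ratio of the 10 at 0.693, nor EDC1, at 1.67, was called. The median log2 ratio of the 10 genes was 0.15, and 0.02 over the 8 genes other than DCS1 and DCS2. The quartiles of all tested genes lay at −0.22 and 0.26. Of the 10 genes 7 differed from the median gene by less than 1.5-fold, as did 84.3% of all tested genes. At a threshold of 1.5-fold EDC1 was called as well, which made 3 of the 10 genes higher (10.3% of all tested genes) and 0 lower (5.35% of all tested genes).

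**Figure D1:**
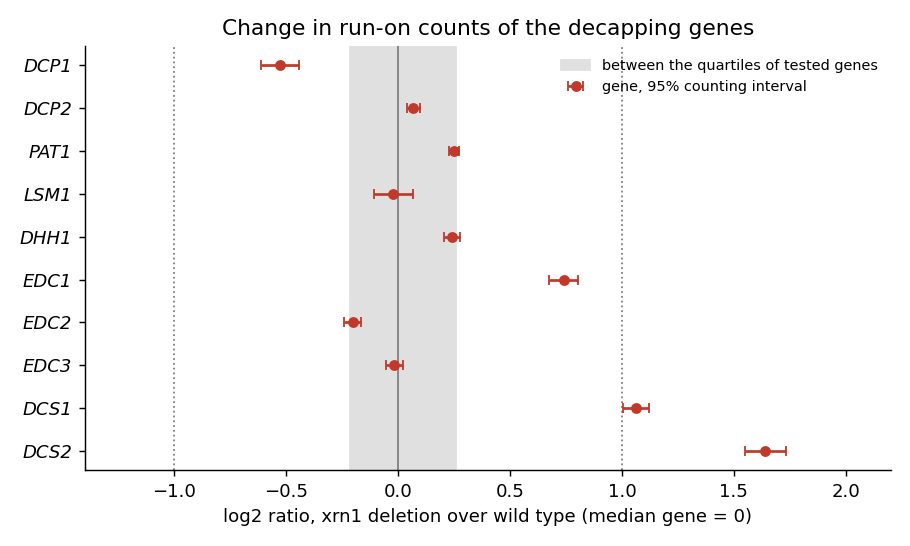
Log2 ratio of run-on counts (xrn1 deletion over wild type, median gene at 0) for each decapping gene on the horizontal axis, with its 95% counting interval. The grey band runs between the quartiles of all tested genes (−0.22 to 0.26) and the dotted lines mark a 2-fold change. DCS1 and DCS2 lie beyond the upper line, EDC1 and DCP1 outside the band, and the other genes within it.

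DCS2 (YOR173W, chromosome XV, 657264 to 658325, R64) had the largest ratio of the 10. It had 3195 counts in the xrn1 deletion strain and 1461 in the wild type, 3.12-fold higher (2.93 to 3.32). DCS1 (YLR270W, chromosome XII, 681186 to 682238) had 5597 counts in the xrn1 deletion strain and 3819 in the wild type, 2.09-fold higher (2.00 to 2.18). Counted from the highest ratio, DCS2 stood at rank 83 and DCS1 at rank 189 of the 5198 genes. The call of DCS1 lies close to the threshold of 2. Levels can be set side by side between genes only per length, here as RPKM, the counts per kb of coding sequence and per 1000000 counts of the library. On that scale DCS2 was at 64.8 RPKM in the xrn1 deletion strain and 21.2 RPKM in the wild type. DCS1 was at 115 RPKM in the xrn1 deletion strain and 55.9 RPKM in the wild type. The median level over genes was 70.1 RPKM in the xrn1 deletion strain and 68.6 RPKM in the wild type. In the wild type both genes were therefore below the median gene, and DCS2 was at percentile 8.18 of the genes by level. In the xrn1 deletion strain DCS2 was at percentile 46.1. DCS1 was at percentile 71.8 in the xrn1 deletion strain and 38.6 in the wild type.

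The balance between the paralogs also differed. Per length, DCS2 was transcribed at 0.566 of the level of DCS1 in the xrn1 deletion strain (0.542 to 0.591) and at 0.379 in the wild type (0.357 to 0.403). Together the pair took 8792 of the 87859 counts of the 10 genes in the xrn1 deletion strain (10.01%), and 5280 of 109405 in the wild type (4.83%). Their coding sequences are 69.5% identical over 1043 aligned bases, so reads could in principle be shared between them. The longest run they have in common is 23 bases, at bases 478 to 500 of DCS1 (chromosome XII, 681663 to 681685) and 475 to 497 of DCS2 (chromosome XV, 657738 to 657760), and is shown because it bounds how far a read can match both without a mismatch.
Shared run of DCS1 and DCS2: aaatgggtaaacaacattcttta
No stretch of 30 bases of any of the 10 genes occurs more than once in the R64 genome on either strand. The sources used here do not give the read lengths or the treatment of reads with several matches.

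The windows from 250 bases before to 50 bases after the first base of the start codon were compared for the called pair, because Dcs2 is known to be under the control of the stress transcription factors Msn2 and Msn4. These factors bind the stress response element, here searched as AGGGG on either strand (CCCCT on the other strand). Both windows lie on the plus strand of R64 and are shown 5′ to 3′, with matches in capitals.
DCS2, chrXV:657014-657313: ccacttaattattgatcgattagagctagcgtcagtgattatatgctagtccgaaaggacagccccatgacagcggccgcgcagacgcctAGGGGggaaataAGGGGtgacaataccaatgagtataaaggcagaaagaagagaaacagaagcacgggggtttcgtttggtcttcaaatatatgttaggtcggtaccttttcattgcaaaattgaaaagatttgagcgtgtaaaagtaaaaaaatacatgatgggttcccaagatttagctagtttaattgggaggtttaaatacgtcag
DCS1, chrXII:680936-681235: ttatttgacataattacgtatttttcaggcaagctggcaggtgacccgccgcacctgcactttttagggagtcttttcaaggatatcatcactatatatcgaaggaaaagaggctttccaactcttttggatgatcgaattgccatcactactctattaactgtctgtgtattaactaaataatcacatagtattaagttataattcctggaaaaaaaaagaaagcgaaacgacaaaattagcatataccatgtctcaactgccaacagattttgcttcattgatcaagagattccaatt
The DCS2 window holds 2 matches, which begin 160 and 148 bases before the start codon, and a TATAAA that begins 127 bases before it. These letters do not occur in the DCS1 window, nor does TATAAA on either strand. Of 5177 windows of tested protein-coding genes, 21.4% held at least 1 match to AGGGG and 2.80% at least 2. TATAAA on either strand was held by 44.2%, and the share with it on the gene strand was not computed. Among the other 8 decapping genes PAT1, LSM1 and EDC2 held 1 match each and the rest 0. Across the table, the 145 genes with at least 2 matches had a median log2 ratio of 0.40, and 15.9% were called higher. The 965 genes with 1 match had a median of 0.12 with 7.36% called higher, and the 4067 with none had a median of −0.03 with 2.83% called higher. DCS2 is itself among the 145 genes and DCS1 among the 4067. A match is a description of the letters and not a measured binding site. Whether the matches bear on the higher ratio of DCS2 was not tested.

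For the decapping enzyme, the run-on level of the catalytic subunit gene hardly differed between the libraries, while that of its partner was lower in the xrn1 deletion strain. DCP2 (YNL118C, chromosome XIV, 402652 to 405564) had 16903 counts in the xrn1 deletion strain and 23015 in the wild type, a ratio of 1.05 (1.03 to 1.07). DCP1 (YOL149W, chromosome XV, 44938 to 45633) had 1626 counts in the xrn1 deletion strain and 3343 in the wild type. Its ratio of 0.693 (0.653 to 0.736) was not called and stood at percentile 6.67 of all tested genes. On the level scale, DCP1 was at 50.4 RPKM in the xrn1 deletion strain, the lowest of the 10 genes, and at 74.0 RPKM in the wild type. Relative to DCP2, the DCP1 level was 0.403 in the xrn1 deletion strain (0.382 to 0.424) and 0.608 in the wild type (0.586 to 0.630).

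The genes of the activators that bring the enzyme to its substrates all lay between the quartiles of tested genes. PAT1 and DHH1 were close to the upper quartile, at percentiles 74.3 and 73.7. PAT1 (YCR077C, chromosome III, 250238 to 252628), a scaffold that links the Lsm ring to the enzyme, had 25010 counts in the xrn1 deletion strain and 29999 in the wild type, the most of the 10. Its log2 ratio was 0.25 (0.23 to 0.27). DHH1 (YDL160C, chromosome IV, 170410 to 171930), the DEAD-box helicase that also represses translation, had 11522 counts in the xrn1 deletion strain and 13895 in the wild type, a log2 ratio of 0.24 (0.21 to 0.28). LSM1 (YJL124C, chromosome X, 187126 to 187644), the subunit that makes the Lsm ring cytoplasmic, had 1891 counts in the xrn1 deletion strain and 2736 in the wild type. Its log2 ratio of −0.02 (−0.11 to 0.06) could not be told from that of the median gene at this depth.

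Among the enhancers, the paralogs EDC1 and EDC2 lay on opposite sides of the median gene. Both are small RNA-binding proteins that stimulate the Dcp1-Dcp2 enzyme. EDC1 (YGL222C, chromosome VII, 80659 to 81186) had 4158 counts in the xrn1 deletion strain and 3549 in the wild type. Its ratio of 1.67 (1.60 to 1.75) was not called and had rank 366 from the highest. EDC2 (YER035W, chromosome V, 222639 to 223076) had 8384 counts in the xrn1 deletion strain and 13772 in the wild type, a ratio of 0.868 (0.845 to 0.892). Per length, EDC1 was at 0.411 of the level of EDC2 in the xrn1 deletion strain (0.396 to 0.427) and at 0.214 in the wild type (0.206 to 0.222), a 1.92-fold change of balance. Their longest shared run of bases is 10. EDC3 (YEL015W, chromosome V, 126629 to 128284), a scaffold of cytoplasmic processing bodies, had 9573 counts in the xrn1 deletion strain and 13816 in the wild type, a log2 ratio of −0.02 (−0.06 to 0.02). RPS28B and YRA1, genes known to give rise to transcripts that Edc3 sends to decay, were at log2 ratios of −0.38 and 0.11. RPS28B has a close paralog, so its count is uncertain.

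**Figure D2:**
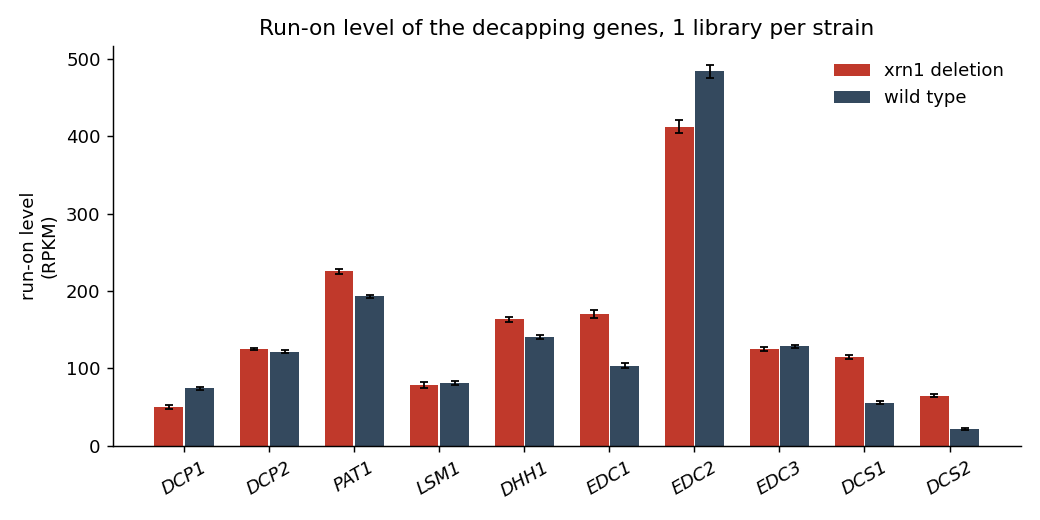
Run-on level of each decapping gene in RPKM in the xrn1 deletion strain (left bars) and the wild type (right bars), with 95% counting intervals and 1 library per strain. EDC2 was highest, at 413 in the xrn1 deletion strain and 484 in the wild type, while DCP1 was lowest in the xrn1 deletion strain at 50.4 and DCS2 lowest in the wild type at 21.2.

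In the order of levels in RPKM, EDC2 came first in both strains, at 413 in the xrn1 deletion strain and 484 in the wild type, and PAT1 second, at 225 in the xrn1 deletion strain and 193 in the wild type. In the xrn1 deletion strain EDC1 (170) and DHH1 (163) followed, then DCP2 (125), EDC3 (125), DCS1 (115), LSM1 (78.5), DCS2 (64.8) and DCP1 (50.4). EDC1 and DHH1 there had overlapping counting intervals, as had DCP2 and EDC3. In the wild type DHH1 (141), EDC3 (128) and DCP2 (122) followed PAT1, then EDC1 (104), LSM1 (81.2), DCP1 (74.0), DCS1 (55.9) and DCS2 (21.2). No neighbours in that order had overlapping counting intervals. The range of the 10 levels, 50.4 to 413 RPKM in the xrn1 deletion strain, was narrower than the 21.2 to 484 RPKM of the wild type.

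The genes next to DCS1 and DCS2 on the chromosome did not share their higher ratios. SEC22 upstream of DCS1 and CMG1 downstream of it were at log2 ratios of 0.03 and 0.28. YRM1 and MED4, which flank DCS2, were at 0.01 and 0.02. The genes beside EDC1, COG1 and NIF3, were at −0.25 and −0.15. No decapping gene overlaps another gene annotated in RefSeq. Of the 6448 counted reading frames 5831 matched RefSeq, and overlap with the rest was not checked. Of 18 neighbours with at least 100 counts, 0 were called higher (4.06% of all tested genes) and 2 lower (1.52% of all tested genes). One was GRE2, for a methylglyoxal reductase, which lies 215 bases upstream of DCP1 on the same strand. It had 652 counts in the xrn1 deletion strain and 2639 in the wild type, a log2 ratio of −1.51. The other was the malate synthase gene MLS1, 793 bases upstream of DCP2 and divergent from it, at −1.11. The sources used here do not say whether the counting used strand, and the part of transcription from GRE2 in the counts of DCP1 was not tested.

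**Figure D3:**
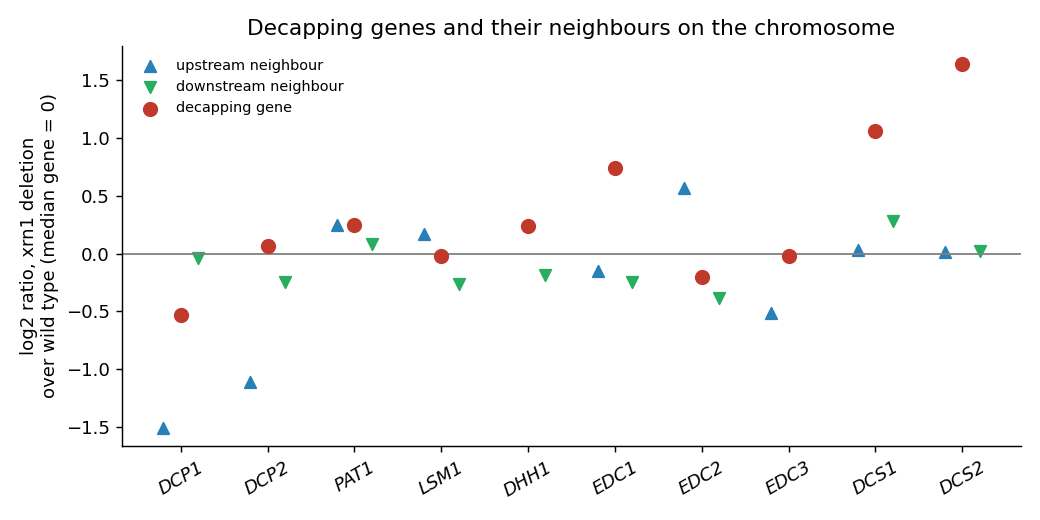
Log2 ratio (xrn1 deletion over wild type, median gene at 0) of each decapping gene (circles) and of its nearest annotated protein-coding neighbours upstream and downstream (triangles), for neighbours with at least 100 counts. The neighbours of DCS1 and DCS2 lie between 0.01 and 0.28, and GRE2, upstream of DCP1, is lowest at −1.51.

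The other genes of cap metabolism and 5′ to 3′ decay showed no member called in either direction at the 2-fold threshold. Taken over 5 lists, 30 genes were measured, with 0 called higher and 0 lower and a median log2 ratio of 0.00. With 4.06% of all tested genes called higher and 1.52% lower, a count of 0 among 30 is close to the share over all genes. At the threshold of 1.5-fold LSM3 (ratio 1.51, 1.42 to 1.61) and NMD4 (1.51, 1.43 to 1.60) were higher, as were 10.3% of all tested genes. The lowest log2 ratio of the 30, −0.49, fell short of a 1.5-fold change. The partners of Lsm1 in the ring, together with the nuclear subunit gene LSM8, ran from −0.45 (LSM7) to 0.60 (LSM3), with LSM2 at −0.07, LSM4 at 0.01, LSM5, which overlaps another gene, at −0.42, LSM6 at 0.04 and LSM8 at −0.13. The 11 regulators of decapping and translational repressors had a median of 0.04. Their extremes were NMD4, a factor of nonsense-mediated decay, at 0.59 and EBS1 at −0.22. NAM7, the helicase Upf1 of that pathway, was at 0.04 and NMD2 at −0.05. The capping enzyme genes CET1, CEG1 and ABD1 lay at −0.00, 0.17 and 0.08. Of the cap-binding and initiation genes, CDC33 (the cap-binding protein eIF4E) was at −0.34, CAF20 at −0.43 and the poly(A)-binding protein gene PAB1 at −0.49. The scaffold genes TIF4631 and TIF4632 were at −0.32 and 0.27, and EAP1 at 0.11. The nuclear exonuclease gene RAT1 was at −0.01, its partner RAI1 at 0.14 and DXO1 at −0.35.

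Among genes tied to Dcs1 and Dcs2 by function or regulation, a neutral trehalase gene and most of the stress genes were called higher. The neutral trehalase gene NTH1, whose product Dcs1 inhibits, had 27643 counts in the xrn1 deletion strain and 19328 in the wild type, 2.04-fold higher (2.00 to 2.08). Its paralog NTH2 was at a log2 ratio of 0.25. The histidine-triad hydrolase gene HNT1 was at 0.90 and HNT2 at 0.02, and the diadenosine tetraphosphate phosphorylase genes APA1 and APA2 were at −0.64 and 0.43. Among 20 genes known to depend on Msn2 and Msn4, 14 were called higher and 0 lower. Over all tested genes 4.06% were called higher and 1.52% lower. The median log2 ratio of the 20 was 1.68. The list was highest at 5.25 (HSP12) and lowest at 0.41 (CTT1), and its genes with the most counts, HSP104 and GLK1, were at 1.49 and 1.58. GLK1 overlaps the reading frame YCL042W, so part of its count is uncertain. DCS2, at 1.64, lay near the median of that list and DCS1, at 1.06, in its lower part. Of these 20 genes 15 held at least 1 AGGGG or CCCCT in the window and 7 at least 2. That stress genes were higher in these libraries was known when the list was written, so it is no independent support.

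**Figure D4:**
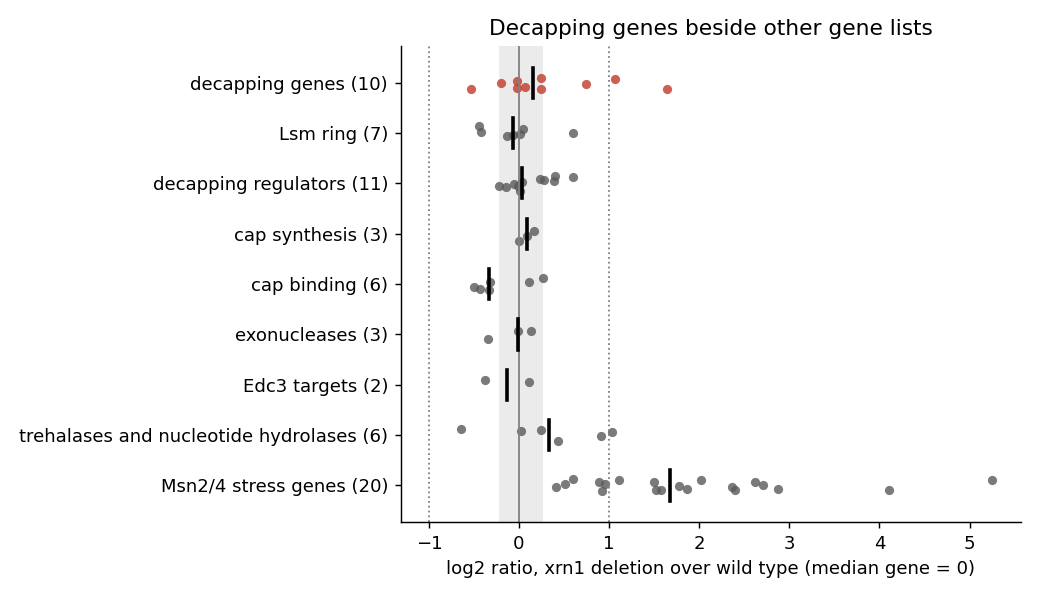
Log2 ratio (xrn1 deletion over wild type, median gene at 0) of the 10 decapping genes and of the genes of each other list, with 1 point per gene, a bar at the list's median, the number of genes in brackets and dotted lines at a 2-fold change. The grey band is the range between the quartiles of all tested genes. The decapping genes have a median of 0.15 with DCS1 and DCS2 beyond the upper line, and the stress genes a median of 1.68.

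The 10 genes differ widely in length and base composition. Their coding lengths run from 438 bases (EDC2) to 2913 bases (DCP2), against a median of 1281 bases over the tested genes. GC content was lowest in DCP1, at 35.2% (percentile 4.53), and highest in EDC2, at 48.9% (percentile 98.1), with a median of 39.7% over the tested genes. DCS1 and DCS2 are alike in length, at 1053 and 1062 bases, and lay at GC contents of 38.5% and 41.2%.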

How the data were processed

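BioGRO-seq counts were analysed for 1 library of the xrn1 deletion strain and 1 of the wild type. The values are raw read counts of open reading frames, deposited by the authors as a single table. Per the submitters' processing notes, the tools were TopHat2 2.1.1, Subread, featureCounts, Trimmomatic and FastQC, and the builds R64 and sacCer3. The sources used here do not give their settings. Positions, lengths and sequences were read from RefSeq R64, to which 10 of 10 genes and 58 of 58 list genes matched. Ratios were scaled to the median of the 5198 protein-coding genes that had 100 counts or more, and intervals are exact conditional (Clopper-Pearson). Levels (RPKM) were computed from the deposited counts, with exact Poisson intervals. The procedure was tested on simulated data with counting error only. Variation between cultures and changes near the 2-fold threshold were not simulated. Named genes are the 10 members, their nearest neighbours, all genes of lists of up to 8 genes, and the highest, the lowest and the 2 with most counts of longer lists. Members and lists were chosen with earlier results of these data known. With 2 libraries, no gene was named for likeness of pattern. Alternatives were 4 scalings (edgeR 4.0.16 and DESeq2 1.42.0 factors among them), count minimums, 5 added to each count, a fold of 1.5, loess trends removed (span 0.3, R 4.3.3) and overlapping genes left out. Calculations ran in Python 3.11.15 with scipy 1.17.1, Biopython 1.88, pandas 2.3.3 and numpy 2.4.6.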

Additional observations from a re-analysis of the deposited data

How the results depend on the processing

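No paired analysis was possible because the strains had a single library each, which also means that none could be left out. At a fold of 1.5, 536 genes were called higher (10.3%) and 278 lower (5.35%), and EDC1 joined DCS1 and DCS2, so 3 of the 10 decapping genes were called higher and 0 lower. Under the other 9 alternatives 2 of the 10 were called higher and 0 lower. All 10 genes passed every count minimum and none overlaps another RefSeq gene, so those settings could not change the calls. The median log2 ratio of the 10 lay between 0.13 and 0.18 over all alternatives. The log2 ratio of DCS1 lay between 1.04 and 1.09 and that of DCS2 between 1.56 and 1.64. The 4 other scalings shifted all genes alike, by −0.03 at most. Ratios of single decapping genes could not change under the count minimums, the fold of 1.5 or the omission of overlapping genes. With those settings included, 100 values were compared, and those of the called genes DCS1 and DCS2 kept their sign. EDC3, which was not called, changed sign when trends were removed, from −0.02 to 0.03. Of the 100, 92 stayed inside the counting interval of the main value and 8 moved out of it. The removal of trends with mean count and GC content accounted for 7 of the 8: among them DCP1 was then at −0.40, EDC2 at −0.38, DCP2 at 0.19 and EDC3, which was not called, at 0.03. The cause was not tested.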
